A study of Mus musculus with 2 samples.

Results

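The genes described here are 51 genes of DNA replication and S phase, chosen by name with earlier results of these data known. They are grouped by the role of their products: the helicase, origin licensing and firing, the polymerases and primase, the sliding clamp with its loader and single-strand binding protein, Okazaki fragment maturation, nucleotide supply, cyclin E with E2F factors, and chromatin copying with repair. The genes were read in pancreatic islets of PERK knockout mice (1 array) and of PERK wild-type mice (1 array), both 2 days old. PERK, the product of Eif2ak3, sits in the endoplasmic reticulum membrane and slows translation initiation when unfolded protein builds up there. The islets had been freed by digestion with collagenase P, and biotin-labelled cRNA was hybridised to Affymetrix mouse 430A arrays, which read each transcript with sets of short probes. Strains and sexes were mixed in the wild type. The sources used here do not give the strain and sex of the knockout animals, the knockout allele, or whether several pups were pooled. Of the 51 genes, 50 had a probe set named for them alone, out of 12393 genes on the array, and Chaf1a was not analysed here.

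DNA replication is a sequence of steps. The origin recognition complex, with Cdc6 and Cdt1, loads the ring of MCM2 to MCM7 onto DNA before S phase; kinases then turn that ring, with Cdc45 and the GINS complex, into the active helicase. Primase and the polymerases copy the opened strands behind it, with polymerases delta and epsilon held by the PCNA clamp. Ribonucleotide reductase and thymidine kinase supply the building blocks. Many of these genes are transcribed together at the border of G1 and S phase under the control of E2F factors. In the first weeks after birth rodent beta cells still divide, and islet mass grows partly through that division.

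Each genotype had a single array, so replicate error is unknown and no test was possible: every value is a single signal in arbitrary intensity units and every ratio compares these 2 libraries. A gene was read from its brightest probe set and was called measured when its signal lay above 39.8 on both arrays, the 40th percentile of all signals, used as a floor. On that scale 44 of the 51 genes were measured. Another 2 (E2f8 and Pole) were above the floor in wild type and at it in the knockout, and 4 (Orc1, Cdc6, Tyms and Ccne2) were at the floor on both arrays. Error was taken from how far probe sets of one gene disagreed, an SD of 0.26 on the log2 scale over 2597 genes with 2 or more measured probe sets. It covers differences between probe sets on the same 2 arrays. Labelling or hybridisation differences between the arrays are not covered, nor are animals, litters or RNA preparations.

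Transcripts of the replication machinery were lower in the knockout library across nearly all roles. Of the 44 measured genes, 40 had a log2 ratio of knockout over wild type below 0, a share of 90.9%, against 45.1% of all 8133 measured genes. At least 1.5-fold lower were 15 of the 44, against 2.95% of all measured genes, and at least 2-fold lower were 4 (Rrm2, Mcm2, Pola2 and Uhrf1), against 0.652%. None of the 44 was at least 1.5-fold or 2-fold higher, sizes reached by 4.19% and 0.516% of all measured genes. The median log2 ratio was -0.39 (1.31-fold lower), and the same with the 2 bounds included, beside 0.03 over all measured genes. The ratios were lower than 0 by more than the SD between probe sets for 29 of the 44, against 15.0% of all measured genes. In a bulk islet sample, fewer cells in S phase and less RNA per such cell cannot be told apart.

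**Figure D1:**
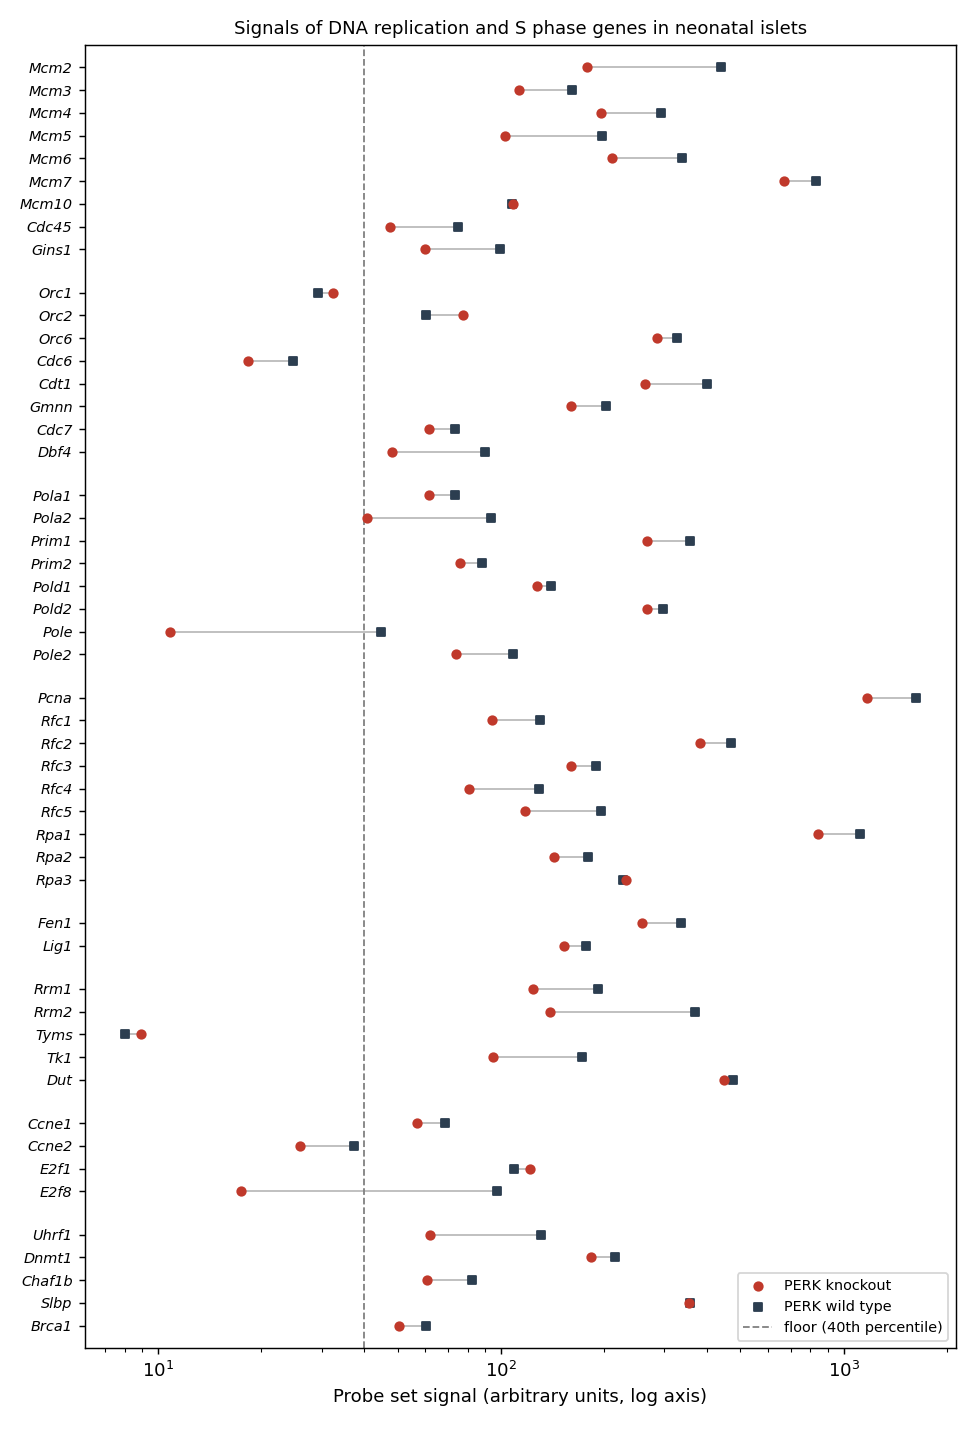
Signal of each gene's brightest probe set (arbitrary units, log axis) in PERK knockout islets (red circles) and PERK wild-type islets (dark squares), 1 array each, with genes grouped by role and the floor of 39.8 as a dashed line. The knockout signal lies left of the wild-type signal for 40 of the 44 genes above the floor on both arrays, with the widest such gaps at Rrm2, Mcm2, Pola2 and Uhrf1.

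The promoters of 5 chosen genes are printed below, as these genes were among the lower ones in the knockout library. E2F sites are the classical shared element of this gene class. The 5 are not the lowest. Pola2 (-1.20), Dbf4 (-0.90), Tk1 (-0.86), Rfc5 (-0.74) and Gins1 (-0.73) had lower log2 ratios than Mcm6 (-0.68) and are not printed. Nor is E2f8, whose bound was -1.29. Each printed stretch is the 250 bases up to the transcription start, from RefSeq's promoter table of GRCm38.p6, 5′ to 3′ on the gene's strand. Capitals mark letters of an E2F element (TTTCCCGC, TTTCGCGC, TTTGCCGC or TTTGGCGC) or of a CCAAT box, each searched on both strands, so that a CCAAT box on the other strand reads ATTGG. Mcm2 lies at chr6:88898781-88899030 (minus strand), Mcm5 at chr8:75109259-75109508 (plus), Mcm6 at chr1:128359706-128359955 (minus), Rrm2 at chr12:24708004-24708253 (plus) and, of the 2 windows of Uhrf1, the one with an E2F element at chr17:56304063-56304312 (plus).
Mcm2: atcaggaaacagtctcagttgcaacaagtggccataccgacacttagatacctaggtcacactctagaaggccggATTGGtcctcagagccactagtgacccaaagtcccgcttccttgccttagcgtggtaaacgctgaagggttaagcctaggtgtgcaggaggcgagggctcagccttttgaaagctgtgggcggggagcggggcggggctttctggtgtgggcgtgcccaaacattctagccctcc
Mcm5: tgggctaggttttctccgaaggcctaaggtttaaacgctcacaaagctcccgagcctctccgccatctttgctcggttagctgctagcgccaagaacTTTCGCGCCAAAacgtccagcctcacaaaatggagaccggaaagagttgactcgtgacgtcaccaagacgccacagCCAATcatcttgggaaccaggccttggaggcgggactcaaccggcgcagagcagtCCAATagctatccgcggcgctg
Mcm6: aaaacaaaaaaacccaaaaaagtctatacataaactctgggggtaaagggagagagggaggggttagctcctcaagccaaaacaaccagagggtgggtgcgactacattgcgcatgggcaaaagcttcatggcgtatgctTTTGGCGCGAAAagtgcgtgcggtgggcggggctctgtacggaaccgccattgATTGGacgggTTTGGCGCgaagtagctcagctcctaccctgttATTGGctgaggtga
Rrm2: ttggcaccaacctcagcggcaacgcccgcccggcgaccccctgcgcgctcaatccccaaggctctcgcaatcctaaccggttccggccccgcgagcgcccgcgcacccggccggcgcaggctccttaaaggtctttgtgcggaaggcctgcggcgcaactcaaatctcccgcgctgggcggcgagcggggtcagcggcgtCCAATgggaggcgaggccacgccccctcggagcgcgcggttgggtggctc
Uhrf1: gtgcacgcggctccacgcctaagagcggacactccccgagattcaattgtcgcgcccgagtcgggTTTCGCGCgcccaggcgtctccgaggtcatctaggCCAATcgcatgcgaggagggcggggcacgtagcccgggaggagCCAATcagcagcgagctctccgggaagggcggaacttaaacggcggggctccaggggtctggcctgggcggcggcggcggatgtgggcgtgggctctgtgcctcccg
The E2F spellings can overlap one another on opposite strands. In Mcm5 and in the upstream run of Mcm6 a sense and an antisense E2F element overlap, so that each reads as a near palindrome. Mcm2 and Rrm2, which had the lowest ratios of the 5, hold none of the 4 E2F spellings in the printed stretch. Windows of 300 bases, from 250 before to 50 after a start, were found for 44 of the 51 genes, and 14 of these (31.8%) held an E2F spelling, against 3.29% of 17492 protein-coding genes. A CCAAT box stood in 61.4% of the 44 and in 42.3% of protein-coding genes. The cell cycle homology region (TTTGAA or TTCGAA) stood in 22.7% and 20.2%, so its share was close to the background. The median log2 ratio was -0.41 for the 12 measured genes with an E2F spelling and -0.41 for the 27 without. A match of letters is a description of the window, and says nothing of whether a factor was bound.

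The replicative helicase had the second lowest median of the 8 roles. All 6 genes of the MCM2 to MCM7 ring were below 0 on the log2 scale, with a median of -0.63 (1.55-fold lower). Mcm2 had signals of 177.8 in the knockout and 438.6 in the wild type (2.47-fold lower, log2 ratio -1.30). Mcm5 had 102.9 in the knockout and 197.1 in the wild type (1.92-fold lower). Among all measured genes their ratios lay at percentiles 0.25 and 0.76. Mcm6 had 210.5 in the knockout against 337.2 in the wild type (1.60-fold lower), and Mcm4 had 195.5 in the knockout against 294.1 in the wild type (log2 ratio -0.59). Mcm3 had 113.3 in the knockout against 161.8 in the wild type (1.43-fold lower). Mcm7 had 671.2 in the knockout against 831.8 in the wild type and differed least (1.24-fold lower). The ratios of the 6 subunits of this one ring thus ran from -1.30 to -0.31 on the brightest probe sets.

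Of the partners that turn the ring into a working helicase, Gins1 and Cdc45 were lower and Mcm10 was level. Gins1, a GINS subunit, had 60 in the knockout and 99.6 in the wild type (1.66-fold lower). Gins4, another GINS subunit on a related list, named after its value was seen, had 246.4 in the knockout and 205.6 in the wild type (log2 ratio 0.26), so the 2 measured GINS genes lay on opposite sides of 0. Cdc45 had 47.5 in the knockout and 74.8 in the wild type (1.57-fold lower), with the knockout signal not far above the floor. Mcm10, which is needed to activate the helicase but is not a subunit of the ring, was level at 108.4 in the knockout and 108.0 in the wild type (log2 ratio 0.01). Over the 9 helicase genes the median log2 ratio was -0.66, and 6 of 9 were at least 1.5-fold lower.

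Nucleotide supply had a median log2 ratio of -0.75 over 4 measured genes. Rrm2 encodes the small subunit of ribonucleotide reductase, whose level limits the making of deoxynucleotides in S phase. Its signals were 138.7 in the knockout and 367.7 in the wild type (2.65-fold lower, log2 ratio -1.41), the lowest ratio of the 44 measured genes. Rrm1, the large subunit, had 124.5 in the knockout and 192.6 in the wild type (1.55-fold lower). Tk1, the cytosolic thymidine kinase of the salvage route, had 94.9 in the knockout and 172.7 in the wild type (1.82-fold lower). Dut, which breaks down dUTP and so keeps uracil out of DNA, differed little, with 446.7 in the knockout and 475.5 in the wild type (log2 ratio -0.09). Tyms, thymidylate synthase, was at the floor on its 3 own probe sets. One more probe set is annotated both to Tyms and to its pseudogene Tyms-ps; it had 178.2 in the knockout and 316.8 in the wild type (1.78-fold lower) and is counted under neither name.

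Genes of origin licensing and firing were mixed. Dbf4, the activating subunit of the kinase that fires origins, had 48.1 in the knockout and 90.0 in the wild type (1.87-fold lower), while the kinase itself, Cdc7, had 61.9 and 73.5 (1.19-fold lower in the knockout). Cdt1, the loader of the MCM ring, had 262.8 in the knockout and 398.7 in the wild type (1.52-fold lower). Geminin (Gmnn), the protein that holds Cdt1 inactive, had 160.7 in the knockout and 202.0 in the wild type (1.26-fold lower). On the log2 scale Cdt1 was at -0.60 on its brightest probe set and at -0.37 on its second, beside -0.33 for Gmnn. Both sides of that pair were thus lower, and the gap between them depends on the probe set. The origin recognition complex did not share this direction throughout. Orc6 had 286.1 in the knockout and 327.5 in the wild type (1.14-fold lower), and Orc2 had 77.3 in the knockout and 60.5 in the wild type (1.28-fold higher, log2 ratio 0.35), the highest ratio of the 44. A second probe set of Orc2 gave 0.38. Orc1 and Cdc6 were at the floor, with signals of 32.4 and 18.3 in the knockout and of 29.3 and 24.8 in the wild type. The 6 measured genes of this role had a median log2 ratio of -0.29.

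All 7 measured polymerase and primase genes were below 0, and on the brightest probe sets only Pola2 was at least 1.5-fold lower. Pola2, the regulatory subunit of polymerase alpha, had 40.7 in the knockout and 93.5 in the wild type (2.30-fold lower), with the knockout signal just above the floor of 39.8. Pola1, the catalytic subunit of the same enzyme, had 61.9 in the knockout and 73.7 in the wild type (1.19-fold lower). The primase subunit Prim1 had 267.6 in the knockout and 355.7 in the wild type (1.33-fold lower), and its partner Prim2 had 76.2 and 88.1 (1.16-fold lower in the knockout). For polymerase delta, the lagging strand enzyme, both subunits of this set were nearly level. Pold1 had 127.4 in the knockout and 140.4 in the wild type (log2 ratio -0.14), and Pold2 had 266.1 in the knockout and 296.5 in the wild type (-0.16). Its other subunits are on a related list, and were looked up after their values were seen: Pold3 had a log2 ratio of -0.37 and Pold4 of 0.04. For polymerase epsilon, the leading strand enzyme, Pole2 had 73.8 in the knockout and 108.2 in the wild type (1.47-fold lower). Its catalytic gene Pole had 10.8 in the knockout, under the floor, and 44.7 in the wild type, which gives a bound of at least 1.12-fold lower. The median log2 ratio of the 7 was -0.25.

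Of 9 genes of the clamp, its loader and the single-strand binding protein RPA, 8 were below 0 with a median log2 ratio of -0.41. Pcna, the sliding clamp, had 1173 in the knockout and 1625 in the wild type (1.39-fold lower). Replication factor C opens that clamp and places it on DNA, and its 5 subunits were all lower in the knockout on their brightest probe sets. Rfc5 had 117.3 in the knockout and 195.6 in the wild type (1.67-fold lower), and Rfc4 had 80.7 and 129.2 (1.60-fold lower in the knockout). Rfc1 was 1.38-fold lower (94.3 in the knockout, 129.9 in the wild type), Rfc2 1.23-fold lower (382.1 in the knockout, 469.4 in the wild type) and Rfc3 1.18-fold lower (159.9 in the knockout, 189.0 in the wild type). The 3 subunits of RPA had unequal ratios: Rpa1 had 842.9 in the knockout and 1119 in the wild type (1.33-fold lower), Rpa2 had 142.8 and 179.6 (1.26-fold lower in the knockout), and Rpa3 was level at 232.2 and 227.9 (log2 ratio 0.03). Of the 2 maturation genes, Fen1, the flap nuclease, had 257.5 in the knockout and 334.9 in the wild type (log2 ratio -0.38). Lig1, the ligase that seals Okazaki fragments, had 153.0 in the knockout and 177.6 in the wild type (1.16-fold lower).

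**Figure D2:**
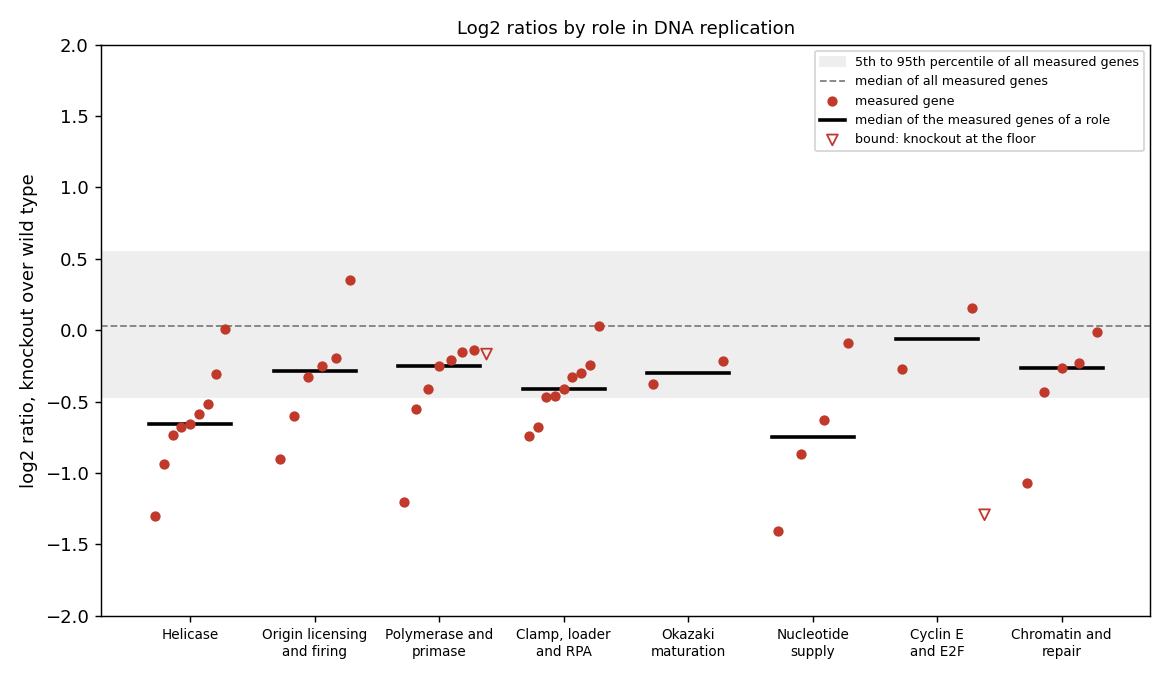
Log2 ratio of knockout over wild type for each measured gene (red points, 1 array per genotype) by role, with the median of each role as a black bar, bounds as open triangles, and the range from the 5th to the 95th percentile of all measured genes (-0.47 to 0.55) in grey. The medians of nucleotide supply (-0.75) and of the helicase (-0.66) lie below the grey range, and those of the other 6 roles lie inside it.

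Among the regulators, E2f8 differed most. It encodes an atypical E2F that represses E2F target genes as S phase proceeds and is itself made in S phase. Its signals were 17.5 in the knockout, under the floor, and 97.5 in the wild type, at least 2.45-fold lower. E2f1, an activating E2F, had 121.3 in the knockout and 109.0 in the wild type (log2 ratio 0.15), but its other measured probe set gave -0.73, so no direction can be given for it. Cyclin E1 (Ccne1), which drives entry into S phase with Cdk2, had 56.8 in the knockout and 68.6 in the wild type (1.21-fold lower). Cyclin E2 (Ccne2) was at the floor on both arrays, with 25.9 in the knockout and 37.2 in the wild type.

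In the group of chromatin copying and repair, Uhrf1 alone was at least 2-fold lower. UHRF1 binds hemimethylated DNA behind the fork and brings in the maintenance methyltransferase Dnmt1. Uhrf1 had 62.2 in the knockout and 130.6 in the wild type (2.10-fold lower, log2 ratio -1.07), whereas Dnmt1 had 183.6 in the knockout and 215.8 in the wild type (1.18-fold lower, log2 ratio -0.23). Chaf1b, a subunit of the chromatin assembly factor CAF-1, had 60.9 in the knockout and 82.4 in the wild type (1.35-fold lower). Brca1, a repair factor at stalled forks, had 50.3 in the knockout and 60.5 in the wild type (log2 ratio -0.27). Slbp, which binds the stem-loop of replication-dependent histone mRNAs, was level at 354.0 in the knockout and 356.9 in the wild type (log2 ratio -0.01).

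Other probe sets of the same genes gave a check within the same 2 RNA samples, though not a replicate of them. Of the 44 measured genes, 20 had 2 or more measured probe sets. In 17 of the 20 every other probe set had the direction of the brightest. The exceptions were E2f1, Rfc3 (-0.24 on the brightest and 0.18 on the other) and Pold1 (-0.14 and 0.07). Over the 20, the second brightest probe sets had a median log2 ratio of -0.42, against -0.39 for the brightest ones. Single sizes were less firm than directions. Mcm2 was at -1.30 on its brightest probe set and at -0.40 on its second, where the signals were 94.7 in the knockout and 125.1 in the wild type, so its 2-fold difference rests on 1 probe set. Rrm2 was 2-fold lower on its first and second probe sets (-1.41 and -1.46) and at -0.37 on the dimmest of its 3. Prim1 and Fen1 were lower on their second probe sets (-0.96 and -0.98) than on the brightest (-0.41 and -0.38), and Dnmt1 likewise (-0.59 against -0.23). Pola2 and Uhrf1 had 1 measured probe set each. Over the other probe sets of the 20 genes, 22 of 25 were below 0.

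**Figure D3:**
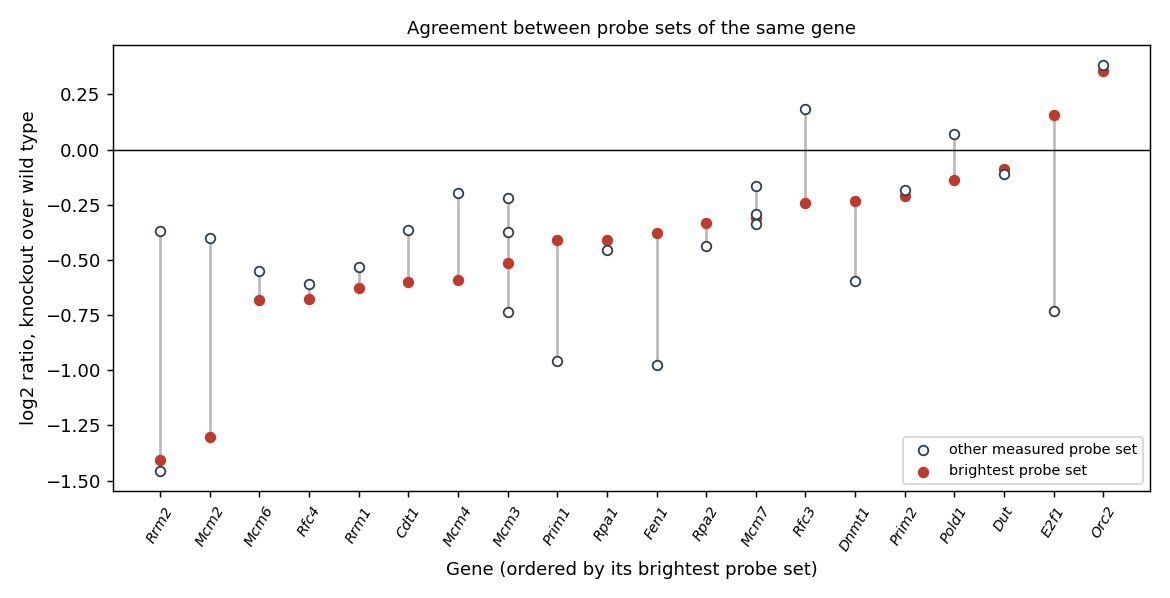
Log2 ratio of knockout over wild type on each measured probe set of the 20 genes with 2 or more, with the brightest probe set filled and the others open, ordered by the brightest. Mcm2, E2f1, Fen1, Prim1 and the dimmest probe set of Rrm2 show the widest gaps, and the probe sets of all but 3 genes (E2f1, Rfc3 and Pold1) lie on the same side of 0.

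Further genes of the same pathways, taken from 5 lists of 121 genes in all, were lower to a smaller extent. These lists too were chosen with earlier results of these data known. Of 86 measured genes on these lists 66 were below 0 (76.7%), against 45.1% of all measured genes. Their median log2 ratio was -0.14, and 4 were at least 2-fold lower, beside 0.03 and 0.652% over all measured genes. The 21 measured genes of other replisome and origin proteins had a median of -0.17, with 16 below 0 (76.2%). Top2a, the topoisomerase that untangles copied DNA, had 115.5 in the knockout and 301.7 in the wild type (2.61-fold lower). Pclaf, a PCNA-associated factor, had 264.5 in the knockout and 641.9 in the wild type (2.43-fold lower). The 23 measured genes of other nucleotide synthesis, most of which also serve RNA synthesis, had a median of -0.07, with 14 below 0 (60.9%). None was at least 1.5-fold apart, a size reached by 2.95% (lower) and 4.19% (higher) of all measured genes. The brightest were Nme2 (-0.26) and Nme1 (-0.44), nucleoside diphosphate kinases. Dck, named after its value was seen, had the lowest ratio of this list, -0.54 (55.4 in the knockout, 80.5 in the wild type). Rrm1 was at -0.63 on its brightest probe set and at -0.53 on its second. The ratios of Rrm2 and Tk1 on their brightest probe sets had no counterpart of that size on this list.

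The 11 measured genes of histone handling and chromatin had a median log2 ratio of -0.18. Asf1b, a histone chaperone of dividing cells, had 82.2 in the knockout and 176.5 in the wild type (2.15-fold lower). The 18 measured genes of other E2F and RB family proteins and S phase kinases had a median of -0.14. Of these, Ccna2, the cyclin of S and G2 phase, had 114.3 in the knockout and 329.0 in the wild type (2.88-fold lower), and its ratio was lower than that of any of the 44. The 13 measured repair genes had a median of -0.17, with the brightest, the deubiquitinase Usp1, at -0.18 and Parp1 at -0.17. None of the 13 was at least 1.5-fold lower, beside 2.95% of all measured genes.

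The libraries were set beside markers of the cells an islet preparation can hold. The targeted gene Eif2ak3 had 58.7 in the knockout and 117.7 in the wild type (2.01-fold lower) on its brightest probe set and lay under the floor on its other 2; the sources used here do not say which exons are deleted. All 7 endocrine markers were measured, with a median log2 ratio of 0.01, and no list had a marker at a signal of 0. Endocrine signals ran from 3951 to 7733 in the knockout and from 4355 to 7032.5 in the wild type. Acinar signals were also high, from 2999 to 7178 in the knockout and from 2174 to 7076 in the wild type. The array maxima were 8242 in the knockout and 8133 in the wild type. Whether signals this near the maximum can show a difference was not tested. The median was 0.10 over 4 measured acinar markers, -0.11 over 4 of duct, 0.01 over 8 endothelial, 0.09 over 8 mesenchymal, -0.19 over 2 erythroid and 0.37 over 3 neural crest markers. The 2 brightest markers of each list had log2 ratios of 0.23 (Ppy) and -0.17 (Chga) for endocrine cells, 0.02 (Ctrb1) and 0.14 (Cpa1) for acinar cells, and -0.03 (Krt7) and -0.19 (Krt19) for duct. They were -0.10 (Esam) and 0.08 (Plvap) for endothelium, and -0.01 (Vim) and -0.12 (Col3a1) for mesenchyme. Tfrc and Alas2 of the erythroid list were both at -0.19, while Hba-a1 and Slc4a1 of that list were at the floor on both arrays. Nefm and Sox10 of the neural crest list were at 0.40 and -0.04. Immune markers differed most. All 9 measured were above 0, with a median of 0.86 (1.82-fold higher), another 3 of the 12 were at the floor in wild type only, and the summed signal of the list was 3402 in the knockout and 1376 in the wild type. S100a8, a protein of neutrophils, had 788.8 in the knockout and 98.9 in the wild type, and its partner S100a9 had 778.3 in the knockout and 120.8 in the wild type. H2-Aa, an MHC class II gene, had 154.0 in the knockout and 76.5 in the wild type (2.01-fold higher). C1qc, a complement gene of macrophages, had 107.4 in the knockout and was under the floor in the wild type, at least 2.70-fold higher. The ratio of 3′ to 5′ signal of beta-actin, which reflects cRNA length, was 2.01 in the knockout and 1.61 in the wild type, and that of Gapdh was 0.867 and 1.01. The part of immune cells or of cRNA length in the lower replication genes was not tested.

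**Figure D4:**
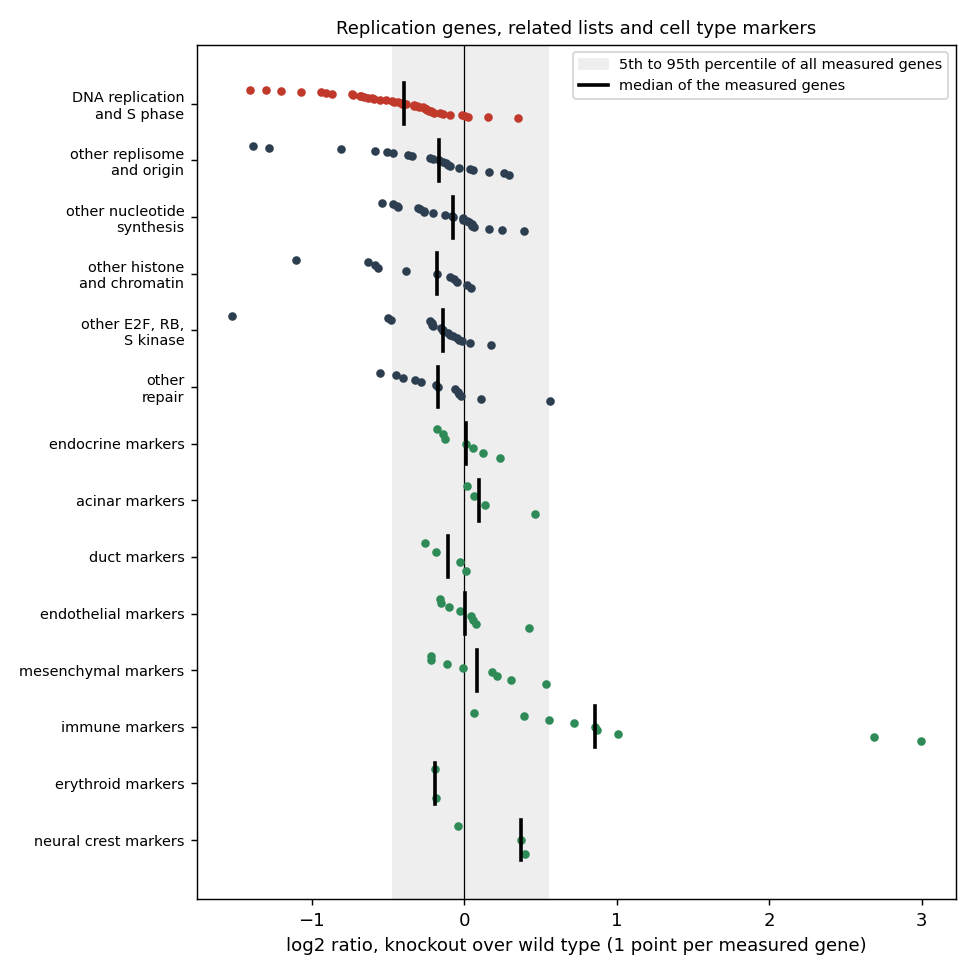
Log2 ratio of knockout over wild type of each measured gene (points) and the median of each list (black bars), for the 44 measured DNA replication and S phase genes (red), 5 related lists (dark blue) and 8 cell type marker lists (green), beside the 5th to 95th percentile range of all measured genes (grey). The replication genes have the lowest median (-0.39) and the immune markers the highest (0.86).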

How the data were processed

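Islet RNA of 1 PERK knockout and 1 PERK wild-type preparation was measured, 1 array each. For each of 22690 probe sets the authors deposited an intensity on a linear scale, made with GCOS 1.02 per the submitters' processing notes. The sources used here do not give the background correction, summary method or detection calls. The 2% trimmed mean was 150.1 on both arrays, so they were already on a common scale (factor 1.00). Signals under the 40th percentile (39.8) were set to that floor, and the log2 ratio was taken. Probe sets with 1 gene symbol (20380, of which 20351 matched RefSeq's GRCm38.p6 table) were used, and each gene was read from its brightest one. Of 12393 genes, 8133 were above the floor on both arrays, 693 on 1 array (a bound) and 3567 on neither. The fold limits are descriptions of size. No p-value was computed, and the number of arrays limits the precision. Every gene of the set is named with its values where it was measured or has a bound, and of the other lists those at least 2-fold apart or else the 2 brightest. Gins4, Pold3, Pold4 and Dck were named besides, after their values were seen. The genes and lists were chosen with earlier results of these data known. The procedure was tested on simulated data. Python 3.11.15, numpy 2.4.6, pandas 2.3.3 and statsmodels 0.14.6 were used. The 10 alternatives concerned scaling, floor and probe set choice.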

Additional observations from a re-analysis of the deposited data

How the results depend on the processing

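The median log2 ratio of the measured genes stayed between -0.42 and -0.32 under the 10 alternatives (deposited values, centring on the median, normalisation by quantiles or loess, a floor at the 25th or the 60th percentile, a pseudocount of 32, the median over probe sets, the second brightest probe set, and no probe sets of the x and s types). No single ratio given above as at least 1.5-fold changed sign. Genes with 1 measured probe set, such as Mcm5, Tk1 and Uhrf1, could not change sign through the choice of probe set. E2f1, at 0.15 on its brightest probe set, was at -0.73 on its second. Genes at least 2-fold lower numbered 4, against 2 with the higher floor, 2 with the pseudocount and 1 of 20 on second probe sets. The share of all measured genes at that size was 0.652%, against 0.495%, 0.320% and 0.385% in these settings. Genes at least 1.5-fold lower numbered 15, against 9, 9 and 6 in these same settings, where the share of all measured genes was 2.95%, against 2.32%, 1.66% and 2.70%. The higher floor leaves 30 genes, and second probe sets 20, of which 17 were below 0, against 44.6% of all genes with a second probe set. On second probe sets the median was -0.38 for the helicase, 0.0085 for licensing (2 genes), -0.98 for maturation (Fen1 alone), -0.73 for the regulators (E2f1 alone) and -0.59 for chromatin (Dnmt1 alone). Without x and s probe sets, maturation had -0.60 and Mcm2 -0.40. Signals near the floor limit Pola2, Cdc45, Dbf4, Brca1 and the bounds. Pola2 and Uhrf1 were not measured with the higher floor, and with the pseudocount both were at -0.79, short of 2-fold. No paired analysis was possible because each genotype has 1 array and the labels carry no replicate numbers.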
